A study of Mus musculus with 4 samples.

Results

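Assembled loci without a gene name were the rows of the deposited gene table that carried only an assembly identifier (XLOC number) and spanned at least 200 bases. There were 3485 of them among 29286 rows, or 11.9%. The names and spans chose them, and their levels did not. The RNA was that of a conditionally immortalised line of mouse podocytes, which are epithelial cells that wrap the capillaries of the kidney glomerulus. After 12 days of differentiation in culture the line received a mimic of miR-93 (2 libraries) or the NT mimic, a nontargeting control (2 libraries), at 50 nM each, and was harvested 48 hours after transfection. The series asked which transcripts change when miR-93 is raised in podocytes. Both groups were the same immortalised line, both received a synthetic oligonucleotide with a lipid reagent, and the mimic adds miR-93 from outside the cell. No label says that the libraries of a group came from separate cultures, although the study's methods call them biological replicates.

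Each locus had 1 FPKM value per group (fragments scaled to transcript length and to the mapped total of the library), which the authors had pooled over the libraries. No spread between libraries could therefore be set beside any difference, no test was made, and every fold below compares 2 pooled values. The depth of the libraries is unknown. The table names its conditions only as q1 and q2. A panel of the study shows the values of Rps6ka4 (Msk2), 9.68 FPKM and 14.7 FPKM, under the names of the groups, the first as the miR-93 mimic, and this fixed the direction used throughout. The study's text, which describes Msk2 RNA as lower with the miR-93 mimic, gives the same direction. Among the markers of podocytes, 7 of 12 rows had a mean FPKM of at least 1, with a summed level of 456 FPKM with the miR-93 mimic and 469 FPKM with the NT mimic. Nphs1, which encodes the slit diaphragm protein nephrin, was not among those 7. Of the other lists, 2 of 6 tubular rows, 3 of 4 mesangial rows, 1 of 5 leukocyte rows and 0 of 5 endothelial rows reached that level, with summed levels of 417 and 388 FPKM for the tubular rows, 23.2 and 21.3 FPKM for the mesangial rows, 5.29 and 3.83 FPKM for the leukocyte rows, and 0.256 and 0.232 FPKM for the endothelial rows. The part of other cell types in the results below was not tested.

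As background, a reference-guided assembler joins overlapping aligned fragments into transcripts and gives an identifier to any transcript that matches no annotated gene. Such loci can be unannotated noncoding RNAs, unannotated exons or ends of known genes, transcripts that run from a promoter in the opposite direction, transcribed repeats and pseudogenes, or stretches where fragments were misplaced. Poly-A selection enriches for RNAs with a poly-A tail. A microRNA guides Argonaute proteins to messenger RNAs by pairing of its seed, and it lowers the level of those RNAs. The mature mouse miR-93 is shown because it is the agent that distinguishes the groups. It is printed from RefSeq (build GRCm38.p6, chromosome 5, 138165574 to 138165596, minus strand) with its seed, bases 2 to 8, in capitals. The labels do not give the sequence of the mimic itself.
mmu-miR-93-5p: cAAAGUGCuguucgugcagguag

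The unnamed loci were short, and most had a mean FPKM under 1. Their median span was 982 bases, with quartiles of 640 and 1734 bases, against a median of 18960.5 bases for the 25422 named gene rows of at least 200 bases. The median of the mean FPKM of both groups was 0.579, with quartiles of 0.333 and 2.40 and a 99th percentile of 187. The named rows had a lower median, 0.279 FPKM, with many rows at 0. A mean FPKM of at least 1, the floor used below, was reached by 1273 loci (36.5%), against 11100 named rows (43.7%). A mean of at least 10 FPKM was reached by 440 loci and a mean of at least 100 FPKM by 68. The lowest mean was 0.0620 FPKM, so the unnamed loci lacked the silent rows that the named genes include, of which 6073 were listed at 0 with both mimics. The authors' table gave the status OK to 3385 unnamed loci and NOTEST to 100 (2.87%), whereas 47.3% of named rows had a status other than OK.

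**Figure D1:**
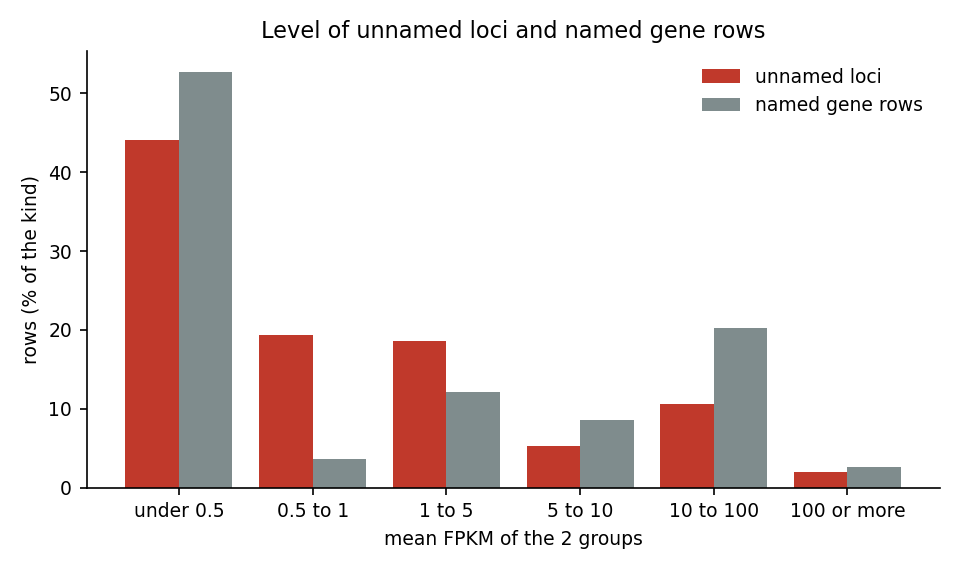
Share of unnamed loci and of named gene rows (%) in 6 classes of the mean FPKM of both groups. The classes from 0.5 to 5 FPKM hold a larger share of the unnamed loci than of the named rows, and the class from 10 to 100 FPKM a smaller one, with 372 unnamed loci and 5148 named rows.

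Short spans and high levels went together. Of 558 loci of 200 to 500 bases, 426 (76.3%) reached the floor, with a median of 3.19 FPKM. The share was 29.8% of 1235 loci from 500 to 1000 bases, 26.0% of 1247 loci from 1000 to 5000 bases and 34.8% of 445 loci of 5000 bases or more. At the lower edge of the span rule, XLOC_020493 (200 bases) had 4.83 FPKM with the miR-93 mimic and 5.24 FPKM with the NT mimic. XLOC_007082, 1 base below the edge at 199 bases, had 60.2 FPKM and 67.4 FPKM. XLOC_016987, also of 199 bases, had 6.11 FPKM and 8.14 FPKM. The 165 unnamed rows under 200 bases, down to 71 bases, ran from 3.10 to 7.46e+07 FPKM and were left out by the rule. FPKM divides by transcript length, and the part of this division in the levels of short loci was not tested.

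The table does not give strand, but the order of the identifiers did. Within each chromosome the XLOC numbers climb in 3 successive series. Of the named genes with a strand in GENCODE, 98.9% of 9934 in the first series lay on the plus strand and 99.2% of 9959 in the second on the minus strand. The third series held 3256 rows, of which 3253 had no gene name. As background, Cufflinks reads strand from splice junctions when a library does not record it, so a transcript with no junction can be left without one. By this reading, found after the data were seen, 3090 unnamed loci (88.7%) had no strand, 191 lay on plus and 204 on minus. The 395 loci with a strand were longer, with a median span of 6568 bases against 904 bases, and had a median level of 0.892 FPKM against 0.545 FPKM.

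Unnamed loci lay on 21 chromosomes, the 19 autosomes, X and Y, and none was mitochondrial. Their number ran from 108 on chromosome 14 to 265 on chromosome 2, with 2 on Y. Set against named rows, chromosome 18 held most, with 23.1 unnamed loci per 100 named rows, and chromosome 7 fewest, with 9.23. The X chromosome stood apart in level. Its 126 loci had a median of 3.17 FPKM, while the medians of the autosomes ran from 0.480 on chromosome 11 to 0.670 on chromosome 1. On X 61.9% of unnamed loci reached the floor, against 35.6% of 3357 on the autosomes, whereas named rows went the other way, with 28.5% on X and 45.2% on the autosomes. X loci were also shorter, with a median span of 668 bases, and lay farther from named rows, at a median of 21.8 kb against 8.38 kb on the autosomes.

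Most unnamed loci stood away from known genes. A named row shared the whole interval of 101 loci (2.90%), lay within 5 kb of 1281 (36.8%) and was farther off for 2103 (60.3%), of which the median distance was 32.0 kb and the largest 2086 kb. Beyond the first 500 bases level rose with distance. The median was 0.439 FPKM within 5 kb, 0.689 FPKM from 5 to 50 kb and 1.38 FPKM over 50 kb. For the 82 loci over 500 kb from any named row it was 4.32 FPKM. Loci sharing an interval had a median of 0.530 FPKM. Within 500 bases it was 0.519 FPKM before a start and 0.606 FPKM past a 3′ end. From 500 bases to 5 kb it was 0.424 and 0.394 FPKM on these sides. Median span fell as level rose, from 991 bases within 5 kb to 954, 887.5 and 756 bases farther out, and its part in the levels was not tested. Overlapping loci are listed with a single merged interval, so the span of the 269 unnamed loci that share an interval with another row is that of the interval. The longest cases show this. XLOC_018889 is listed with 545108 bases on chromosome 4, where 10 other rows share its interval, among them that of the zinc finger gene Zfp600. XLOC_012353, XLOC_014735 (beside Baz2b, a bromodomain gene) and XLOC_024132 (beside Tead1, a transcription factor of the Hippo pathway) likewise share their intervals of 379917, 310461 and 304830 bases. XLOC_013445, on chromosome 2 from 15448228 to 16177185 (mm9), shares its 728958 bases with no row and had 2.09 FPKM with the miR-93 mimic and 2.77 FPKM with the NT mimic.

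The nearest neighbours were not spread evenly around genes. Of 355 loci within 500 bases of a named row, 287 (80.8%) lay before its 5′ start and 68 past its 3′ end. Among loci more than 5 kb away, 50.7% lay on the 5′ side. Of the 25422 named rows, 5744 share an interval with another row. Where such rows lie on both strands, the side was that of the row listed first. The edge of such an interval need not be the end of a given gene. The part of this in the shares was not tested. Of the 287, 251 had no strand, 35 lay on the strand opposite to the gene and 1 on the same strand. As background, many mammalian promoters also start a short transcript that runs away from the gene. The median level of the 287 was 0.519 FPKM, and 68 reached the floor.

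The most abundant unnamed locus was also the one of the 10 most abundant that was higher with the miR-93 mimic. XLOC_015021 (chromosome 2, 100300987 to 100468308) had 2008 FPKM with the miR-93 mimic and 1256 FPKM with the NT mimic, a 1.60-fold difference. XLOC_013922, listed with the same interval and on the other strand by its identifier, had 20.2 FPKM and 13.9 FPKM, or 1.45-fold. No named row lay within 932 kb of them. Each of the other nine was lower with the miR-93 mimic, by log2 ratios from −0.02 to −0.32. They spanned 239 to 2118 bases and carried no strand.

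Second in level, XLOC_010263 (chromosome 16, 51363759 to 51363997) had 1559 FPKM with the miR-93 mimic and 1687 FPKM with the NT mimic, at 631 kb from 5330426P16Rik (2.31 FPKM and 2.06 FPKM). XLOC_015595 (chromosome 2) had 795 FPKM and 825 FPKM and lay 39.3 kb from the lipoprotein receptor gene Lrp1b, which was listed at 0.000664 FPKM and 0 FPKM. XLOC_002870 (chromosome 10) had 750 FPKM and 758 FPKM, at 163 kb from Hace1, a ubiquitin ligase gene with 2.95 FPKM and 2.99 FPKM. The genes nearest to these 3 loci were low or close to 0. The same held beside XLOC_025826 (chromosome 8), with 411 FPKM and 470 FPKM at 1.47 kb from the defensin gene Defb7 (0.0595 FPKM and 0 FPKM), and beside XLOC_018731 (chromosome 4), with 566 FPKM and 598 FPKM at 22.3 kb from Sdr16c5 (0 FPKM in both groups). XLOC_021991 (chromosome 6) had 682 FPKM and 770 FPKM and lay 18.8 kb from Gng12, a G protein subunit gene with 93.4 FPKM and 99.7 FPKM. Of the rest, XLOC_022064 had 364 and 436 FPKM, at 69.5 kb from Aebp2 (31.9 and 33.4 FPKM). XLOC_001514 had 301 and 376 FPKM, at 18.4 kb from 4921521F21Rik (0.0225 and 0 FPKM). XLOC_020384 had 306 and 366 FPKM, at 32.2 kb from Steap1 (129 and 133 FPKM).

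Between the mimics most unnamed loci differed little. Ratios are given on the scale of log2(FPKM + 0.1), miR-93 mimic over NT mimic, for loci over the floor. Their median was −0.11, with quartiles of −0.24 and 0.05, and 407 of 1273 (32.0%) were above 0. Named rows had a median of −0.09 and 30.6% above 0. A difference of less than 1.5-fold was found for 92.5% of the unnamed loci and 96.2% of the named rows. At least 2-fold higher with the miR-93 mimic were 10 unnamed loci (0.786%), where 0.59% of all 12373 rows over the floor were. At least 2-fold lower were 15 (1.18%), where 0.517% of all rows were. These shares were not matched for level. Named rows gave 63 higher and 49 lower. With ratios centred on the median of the named rows, 11 unnamed loci were higher and 10 lower, and 73 named rows higher and 36 lower. With a pseudocount of 1 in place of 0.1, 7 unnamed loci were higher and 4 lower.

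**Figure D2:**
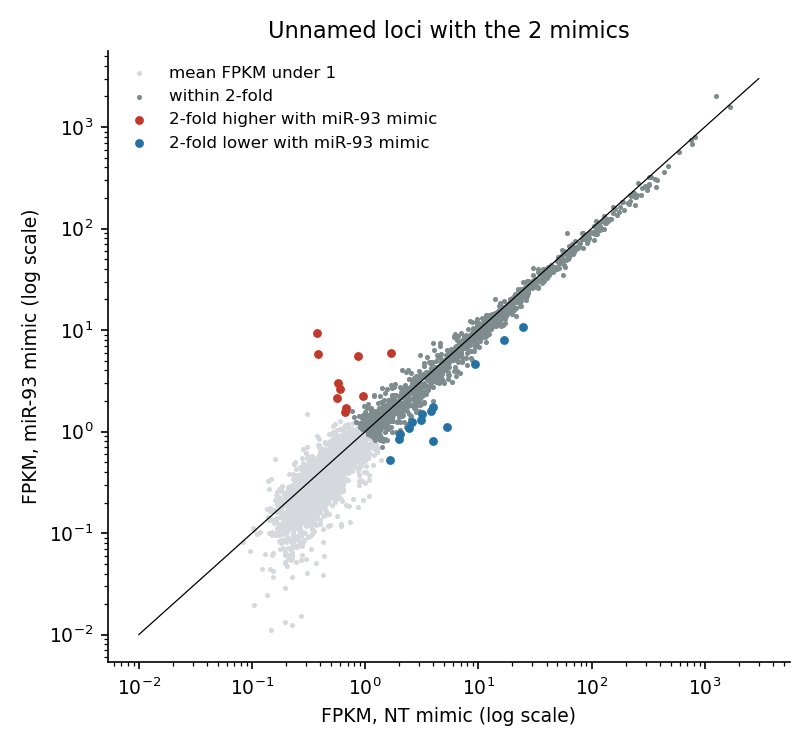
FPKM of each unnamed locus with the NT mimic (horizontal, log scale) and the miR-93 mimic (vertical, log scale), with the line of equal values; the 2 loci listed at 0 with the miR-93 mimic are not drawn. None of the 68 loci with a mean of at least 100 FPKM is 2-fold apart.

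The loci that were 2-fold apart were mostly of low level. From 1 to 5 FPKM, 10 of 650 loci (1.54%) were 2-fold higher and 12 (1.85%) lower. Of 3085 named rows at that level, 51 (1.65%) were higher and 20 (0.648%) lower. From 5 FPKM upward, 0 of 623 loci were higher and 3 lower, while of 8015 named rows 12 were higher and 29 lower. Loci of at least 100 FPKM had a median ratio of −0.17, with 7 of 68 above 0, while the 670 named rows of that level had a median of −0.11, with 142 above 0. Below the floor the unnamed loci and the named rows leaned opposite ways. There, 80 of 2212 unnamed loci (3.62%) were 2-fold lower and 4 (0.181%) higher, where 0.726% and 1.96% of all 16534 rows under the floor were, and named rows gave 40 lower and 320 higher. An unnamed locus is listed only where fragments were assembled, while 6073 named rows were listed at 0 with both mimics. No unnamed locus was at 0 with the NT mimic, and 2 were with the miR-93 mimic. The part of this unlike entry in the opposite leanings was not tested. Span went with the ratio as well, with medians of −0.14 for loci of 200 to 500 bases, −0.12 from 500 to 1000 bases, −0.07 from 1000 to 5000 bases and −0.06 from 5000 bases.

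The 10 higher loci lay on chromosomes 2, 7, 8, 13, 18 and X and all lacked a strand. None was within 5 kb of a named row, the nearest being at 7.82 kb and the farthest at 1035 kb. Both traits were common, since of all 1273 loci over the floor 1097 lacked a strand and 1000 were more than 5 kb away. XLOC_012409 (chromosome 18, 80209097 to 80210369, 1273 bases) had 9.33 FPKM with the miR-93 mimic and 0.375 FPKM with the NT mimic, a 24.8-fold difference (log2 ratio 4.31). Pard6g, a cell polarity gene 33.3 kb away, had 5.79 FPKM and 6.17 FPKM. The locus thus moved from far below that gene to above it, while the gene itself differed little.

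XLOC_015648 (chromosome 2, 98506713 to 98507467) had 5.80 FPKM with the miR-93 mimic and 0.380 FPKM with the NT mimic, or 15.3-fold, and its nearest named row was Lrrc4c, a neuronal adhesion gene near 0 in both groups. XLOC_012358 (chromosome 18, 46515214 to 46516954) had 3.01 FPKM and 0.575 FPKM, or 5.22-fold, at 43.6 kb from Ccdc112 (3.10 FPKM and 3.36 FPKM). XLOC_028858 (X, 72118346 to 72118603) had 5.91 FPKM and 1.70 FPKM, or 3.48-fold, among 3 predicted genes listed at or near 0. These 3 loci and XLOC_012409 had no other unnamed locus within 50 kb. XLOC_025955 (chromosome 8, 96946818 to 96947687) had 2.25 FPKM and 0.965 FPKM, or 2.34-fold, while the unnamed XLOC_025954, 17.0 kb away, had 39.9 FPKM and 38.7 FPKM.

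Others moved with their neighbours. On chromosome 7, 4 successive unnamed loci within 10.4 kb (31983366 to 31993736) were all at least 2-fold higher with the miR-93 mimic. XLOC_022428 had 1.48 FPKM against 0.305 FPKM with the NT mimic, XLOC_024440 had 0.901 against 0.375 FPKM, XLOC_024441 had 1.70 against 0.671 FPKM, and XLOC_024442 had 2.15 against 0.565 FPKM. The first pair had a mean under the floor. Gramd1a, a sterol transfer gene that was the nearest named row, had 10.9 FPKM against 12.8 FPKM. Without the floor it was the only stretch of 3 or more unnamed loci that were 2-fold higher with gaps of at most 50 kb, and over the floor only the last pair counted.

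On X, XLOC_028870 (76101664 to 76102125) had 5.53 FPKM with the miR-93 mimic and 0.856 FPKM with the NT mimic, or 6.46-fold. It lay between XLOC_028869, 131 bases away with 12.0 FPKM and 8.78 FPKM, and XLOC_028871, 129 bases away with 5.68 FPKM and 3.05 FPKM. All 3 were higher within 2.51 kb, by unequal amounts. On chromosome 8, XLOC_025860 (32849600 to 32850239) had 2.61 FPKM and 0.601 FPKM, and XLOC_025859, 552 bases away, had 2.87 FPKM and 1.69 FPKM. Nrg1, which encodes a ligand of ErbB receptors and lay 69.7 kb away, had 31.4 FPKM and 31.1 FPKM. On chromosome 13, 6 unnamed rows shared the interval from 3658849 to 3766501 and all were higher with the miR-93 mimic, by log2 ratios from 0.41 (XLOC_007010) to 1.12 (XLOC_007012, 1.55 FPKM and 0.659 FPKM). The most abundant of them, XLOC_006486, had 2.13 FPKM with the NT mimic and was 1.88-fold higher with the miR-93 mimic. Asb13, a ubiquitin ligase adaptor gene 7.82 kb away, was lower, with 3.48 FPKM and 5.15 FPKM.

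**Figure D3:**
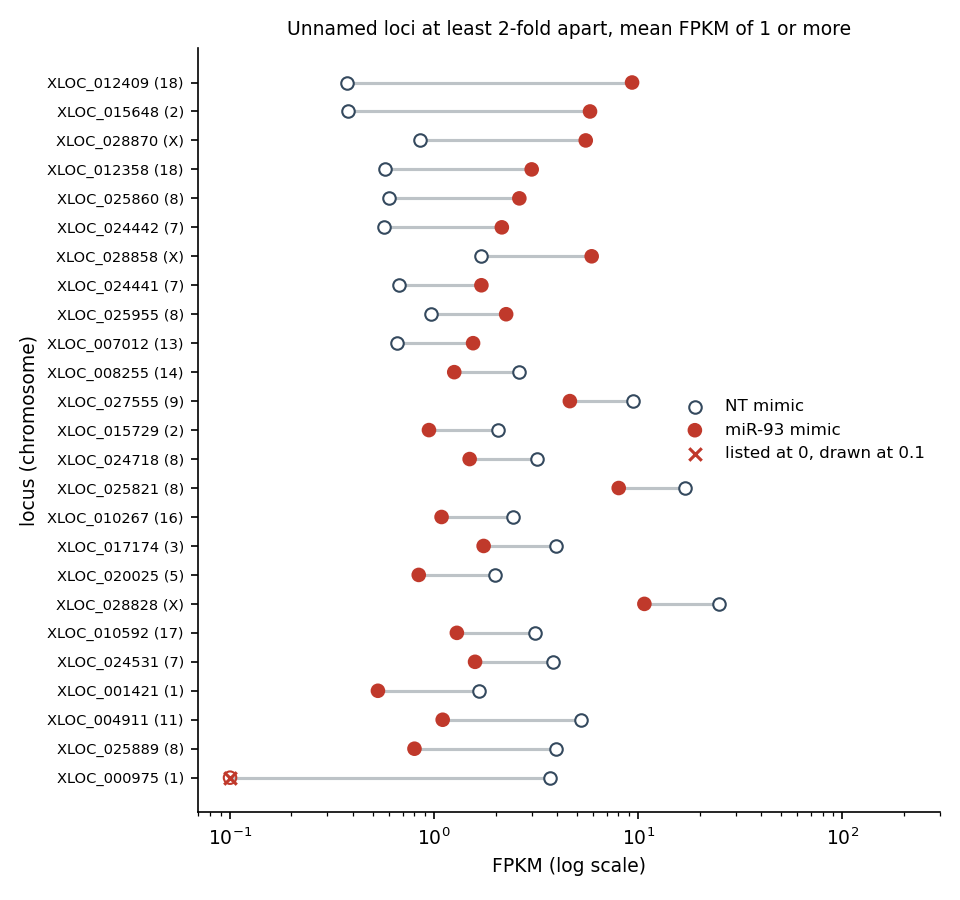
FPKM (log scale) of the 10 unnamed loci at least 2-fold higher and the 15 at least 2-fold lower with the miR-93 mimic, each with its chromosome; filled points are the miR-93 mimic, open points the NT mimic, and the cross is a value listed at 0. With the NT mimic the higher loci lie between 0.375 and 1.70 FPKM and the lower loci between 1.65 and 24.8 FPKM, a contrast that the floor on the mean of both groups partly sets.

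The 15 lower loci were mostly either short or long. There were 9 under 500 bases and 5 of 5000 bases or more, where 426 and 155 of all 1273 loci over the floor were. Those 5 all carried a strand, as did 176 of the 1273. XLOC_000975 (chromosome 1, 85069379 to 85074748, minus strand) was listed at 0 with the miR-93 mimic and had 3.69 FPKM with the NT mimic. A value of exactly 0 can be a failed estimate, so no fold is given. XLOC_000975 lay 9.97 kb from an interval of 188821 bases in which A530040E14Rik was higher, with 2.55 FPKM and 1.13 FPKM. The other rows listed with that interval were mixed. The rows of Gm7609 were lower (log2 ratios −0.34 and −0.66), and the unnamed XLOC_001533 differed little (−0.002). C130026I21Rik (0.13), A530032D15Rik (0.17) and Gm2397 (0.77) were higher. Of these other rows, all but XLOC_001533 were under 1 FPKM in both groups. XLOC_025891 was the other locus listed at 0 with the miR-93 mimic, with 0.474 FPKM with the NT mimic, and no unnamed locus was at 0 with the NT mimic.

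Of the long loci, XLOC_001421 (chromosome 1, 15191 bases) had 0.530 FPKM with the miR-93 mimic and 1.65 FPKM with the NT mimic, at 37.5 kb from A330023F24Rik (0.377 FPKM and 0.389 FPKM). XLOC_020025 (chromosome 5, 16991 bases) had 0.840 FPKM and 1.99 FPKM, at 42.0 kb from the zinc finger gene Zfp644 (4.45 FPKM and 4.71 FPKM). XLOC_024718 (chromosome 8, 25078 bases) had 1.49 FPKM and 3.18 FPKM. XLOC_010592 (chromosome 17) had 1.29 FPKM and 3.12 FPKM and shared its interval with H2-DMa, whose product loads peptides onto MHC class II molecules, and which had 14.7 FPKM and 17.4 FPKM. Its ratio of −1.21 was far from the −0.24 of H2-DMa and the −0.15 of XLOC_011616, the other unnamed locus there.

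Among the short ones, XLOC_025889 (chromosome 8, 200 bases, at the edge of the span rule) had 0.801 FPKM with the miR-93 mimic and 3.94 FPKM with the NT mimic, or 4.92-fold lower, at 12.9 kb from Wwc2 (91.3 FPKM and 85.1 FPKM). XLOC_004911 (chromosome 11, 239 bases) had 1.10 FPKM and 5.26 FPKM, or 4.77-fold lower, at 4.24 kb from Gpx3, the secreted glutathione peroxidase gene, with 0.720 FPKM and 0.672 FPKM. XLOC_017174 (chromosome 3, 203 bases) had 1.75 FPKM and 3.94 FPKM at 3.33 kb from the interferon-induced Gbp1 (0.725 FPKM and 0.856 FPKM). Their neighbours did not share these differences. XLOC_010267 (chromosome 16, 253 bases), with 1.09 FPKM and 2.44 FPKM, even lay 89 bases from the unnamed XLOC_010027, which had 1.11 FPKM and 0.946 FPKM.

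Beside some of the lower loci a named row was lower as well. XLOC_024531 (chromosome 7, 531 bases) had 1.59 FPKM with the miR-93 mimic and 3.84 FPKM with the NT mimic, and Gm8995, 2.27 kb away, had 1.72 FPKM and 4.24 FPKM, so the log2 ratios were −1.22 and −1.25. XLOC_028828 (X, 34379044 to 34379305) had 10.7 FPKM and 24.8 FPKM, the largest difference among loci with a mean of at least 10 FPKM, and C330007P06Rik, 9.23 kb away, had 7.95 FPKM and 12.2 FPKM. Next in that class came XLOC_025821 (8.02 FPKM and 17.0 FPKM, 212 bases) and XLOC_000008, a plus-strand locus of 38767 bases on chromosome 1 (34.8 FPKM and 55.7 FPKM, 1.60-fold lower), then XLOC_028861 on X (13.7 FPKM and 21.7 FPKM, 112 kb from the actin-bundling gene Pls3) and XLOC_012415 on chromosome 18 (11.2 FPKM and 16.6 FPKM, 1013 kb from Socs6, a cytokine signalling regulator). On the higher side of that class, beside the pair on chromosome 2, XLOC_008225 (chromosome 14) had 89.3 FPKM and 61.2 FPKM and XLOC_018784 (chromosome 4) had 12.2 FPKM and 8.47 FPKM.

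The median ratio differed by place, without a steady trend with distance. Loci over the floor that were more than 5 kb from a named row had a median of −0.11 (1000 loci, 10 higher and 11 lower by 2-fold), those within 5 kb had −0.07 (245 loci, 0 higher and 3 lower), and those sharing an interval had −0.02 (28 loci, 0 higher and 1 lower). The 68 loci within 500 bases before a start were the one group here with a median above 0, at 0.02, and 35 of them (51.5%) were above 0. Set against the median of −0.09 of the named rows, the loci within 5 kb and those sharing an interval were above it too. By side, loci within 5 kb had −0.07 before a start (162 loci) and −0.11 past a 3′ end (83 loci). Farther out the median was −0.13 from 5 to 50 kb (553 loci) and −0.10 over 50 kb (447 loci). Over 500 kb it was −0.08 (61 loci), which was also above that of the named rows. The 17 loci within 500 bases past a 3′ end had a median of −0.12.

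**Figure D4:**
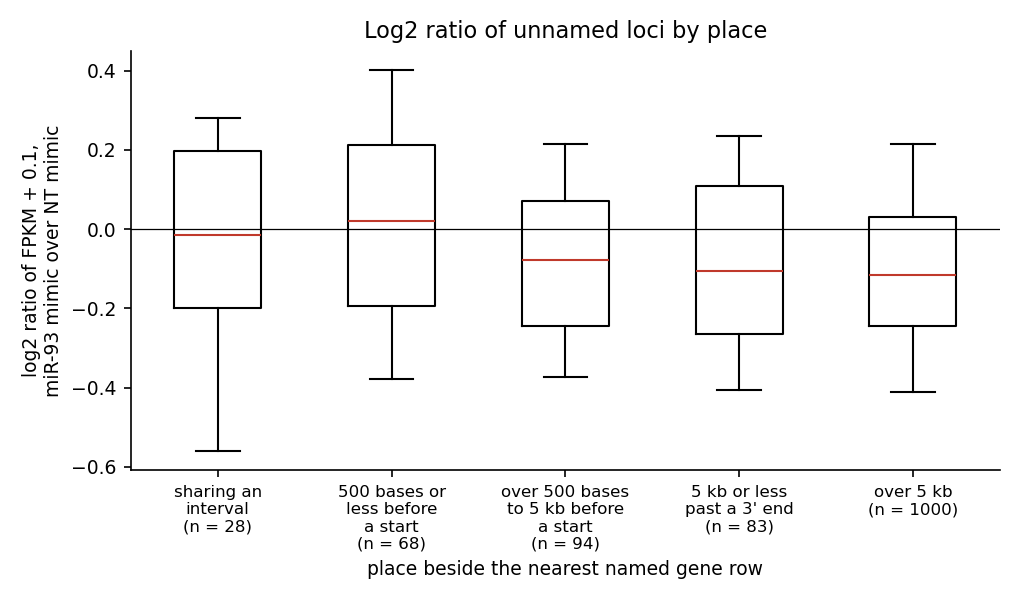
Log2 ratio of FPKM + 0.1, miR-93 mimic over NT mimic, of unnamed loci with a mean FPKM of at least 1, by place beside the nearest named row; lines are medians, boxes quartiles and whiskers the 10th and 90th percentiles. The median is 0.02 for the 68 loci within 500 bases before a start and −0.11 for the 1000 loci over 5 kb away.

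Ratios of loci just before a start were set beside those of their genes. For 61 pairs in which the locus and the gene were both over the floor, the 2 log2 ratios had a Pearson r of 0.56 and a Spearman rho of 0.50 across loci, and 45 pairs had the same sign. Both ratios leaned below 0 in the table as a whole, so many pairs share a sign in any class, with 282 of 472 for loci more than 5 kb away and 30 of 38 for loci within 5 kb past a 3′ end. The members of a pair share libraries and lie side by side, and pairs are not replicates, so no p is given. The median ratio was 0.07 for the loci and −0.07 for the genes, and the loci stood at a median of 0.185 of the level of the gene. From 500 bases to 5 kb before a start r was 0.36 over 52 pairs, within 5 kb past a 3′ end it was 0.49 over 38 pairs, and for loci more than 5 kb away it was −0.09 over 472 pairs.

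Single pairs varied. Before Mex3a, an RNA-binding protein gene with 4.71 FPKM with the miR-93 mimic and 2.92 FPKM with the NT mimic, XLOC_017096 had 1.89 FPKM and 1.06 FPKM. Before Camk2n1, an inhibitor of the kinase CaMKII with 2.58 FPKM and 4.82 FPKM, XLOC_018865 had 3.49 FPKM and 6.35 FPKM. In these pairs gene and locus moved the same way by like amounts. Before Nup153, a nuclear pore gene with 16.4 FPKM and 14.5 FPKM, XLOC_007073 had the largest ratio of the group, with 1.60 FPKM and 0.763 FPKM, and before Aldh1a2, a gene of retinoic acid synthesis with 67.5 FPKM and 72.1 FPKM, XLOC_027515 had 1.58 FPKM and 3.01 FPKM. There the locus differed more than the gene. In the pair of XLOC_012344 (2.07 FPKM and 1.48 FPKM) with the row of Ankhd1 and Eif4ebp3 (11.0 FPKM and 11.6 FPKM) the signs were opposite, with log2 ratios of 0.45 and −0.08. These pairs were chosen after their values were seen.

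**Figure D5:**
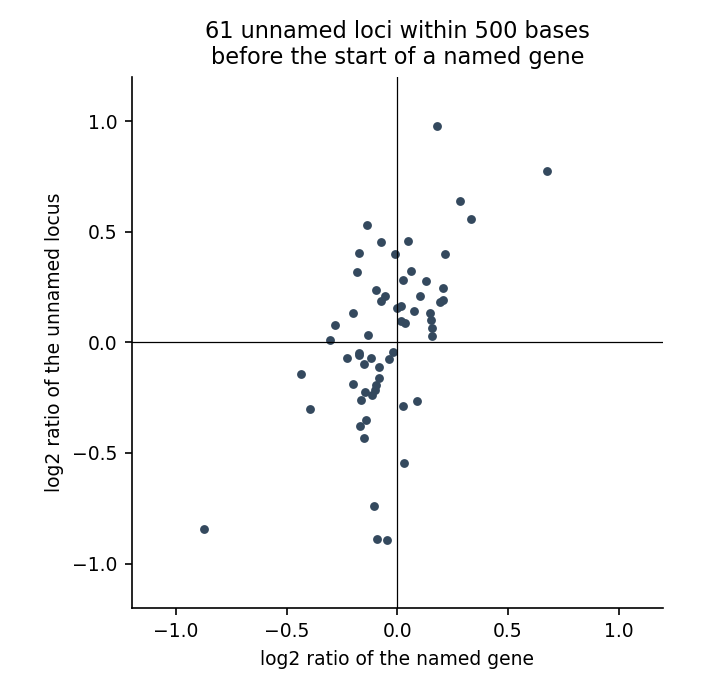
Log2 ratio of FPKM + 0.1, miR-93 mimic over NT mimic, of 61 unnamed loci (vertical) and of the named genes before whose starts they lie within 500 bases (horizontal); each point is a pair. The pairs with Mex3a and Camk2n1 lie at the upper right and lower left, and r is 0.56.

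Unnamed loci were also sought around the rows of a list drawn up for the 2-cell embryo stage. Of its 28 names, 21 rows were found and 8 reached the floor. Loci around other named rows were not counted in this way, so the number found has no background beside it. Within 50 kb there were 3, all beside the translation initiation factor gene Eif1a on chromosome 18. XLOC_012360 had 0.714 FPKM with the miR-93 mimic and 0.958 FPKM with the NT mimic, XLOC_011887 had 0.561 FPKM and 0.607 FPKM, and XLOC_012359 had 0.559 FPKM and 0.704 FPKM. All were under the floor. Eif1a had 90.4 FPKM and 101 FPKM, of 122 FPKM and 102 FPKM summed over the 21 rows found. A place on the list does not make it specific to that stage. Under the floor there was also a stretch of 3 loci that were 2-fold lower, XLOC_013317, XLOC_013318 and XLOC_013320 on chromosome 19, which share 1 interval (37860346 to 37896424) and had 0.184 to 0.212 FPKM with the miR-93 mimic and 0.676 to 0.963 FPKM with the NT mimic.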

How the data were processed

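Per the study's methods and the submitters' processing notes, paired reads of poly-A RNA were checked with FastQC and Trimmomatic, aligned to mouse build mm9 with TopHat2 2.0.4, and assembled and quantified with Cufflinks and Cuffdiff2. For the other tools the version is not given in the sources used here. FPKM values as deposited were normalised and pooled over the 2 libraries of a group by the authors. The columns of the authors' own test (fold change, statistic, p and q) were not used. Depth is unknown, so no interval was computed for the FPKM or the ratio of a single locus.

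Rows without a gene name and of at least 200 bases were taken, and the log2 ratio of FPKM + 0.1 was computed in Python 3.11.15 (pandas 2.3.3, NumPy 2.4.6). A locus was counted at a mean FPKM of at least 1 and a 2-fold difference. Distances ran between intervals of the same table. Its starts count from 0 (end minus start gave the RefSeq length for 5590 of 15517 named rows and 1 base less for 115) and are printed from 1. No mm9 sequence was used here, so no locus sequence is printed. The steps for ratios, identifier series and distances were tested on simulated data.

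Loci named in the text were the 10 of highest level and the 10 largest and 10 smallest ratios over the floor. Added were up to 5 each way at 10 FPKM or more, the 5 longest and those at the span limit. Stretches of 3 or more, loci within 50 kb of rows of the 2-cell list and neighbours of all these were named too. The members and lists were chosen with earlier results of these data known. Strand and the side of a gene were added after seeing the data.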

Additional observations from a re-analysis of the deposited data

How the results depend on the processing

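No paired analysis was possible because each group has 1 pooled value, and for the same reason leaving out a library could not be run. The 25 unnamed loci that were 2-fold apart became 11 with a pseudocount of 1, 44 with a floor of 0.5, 3 with a floor of 5 (0 higher), 109 with no floor, 14 with a span of at least 500 bases, 96 at 1.5-fold and 7 at 4-fold. Centred on the median of named rows, 11 were higher and 10 lower, in place of 10 and 15. The 112 named rows became 41 with a floor of 5, and with centring 73 were higher and 36 lower in place of 63 and 49. The median log2 ratio of unnamed loci was −0.09 with a pseudocount of 1 (−0.0873) and with a floor of 0.5 (−0.0870), and −0.02 (−0.0187) when centred. For loci over 5 kb away it was −0.09 (−0.0939) with a pseudocount of 1, and for those sharing an interval it turned to 0.08 (0.0821) with a floor of 5, which left 4 loci. Within 1 kb of a named row lay 479 loci, in place of 1281 within 5 kb. The other 25 of 39 alternatives stayed within 1.5 times the count or within the 95% order-statistic interval of the median. That interval runs over loci, which share the same libraries and are not replicates. It therefore served only as a yardstick for shifts between settings and does not measure error. Among the 25 were all alternatives for the loci before a start, which were chosen after seeing the data. Their interval came from 68 loci and reached to both sides of 0, and a floor of 5 left 8 loci. Staying within it therefore cannot decide whether their median lies above 0. Most 2-fold calls lie at 1 to 5 FPKM, and with no library values their error is unknown.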
